A study of Mus musculus with 12 samples.

Results

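The miR-34 family was followed through every array name that carries the number 34a, 34b or 34c, with any arm or star suffix. The rule found 5 of the 611 mouse miRNAs on the array, namely mmu-miR-34a, mmu-miR-34b-5p, mmu-miR-34b-3p, mmu-miR-34c and mmu-miR-34c*, of which 3 were bright enough to be tested. The mouse prefix mmu is left out below. The measured material was mature miRNA from mouse embryonic fibroblasts of C57BL/6 background, hybridised to 12 1-colour Agilent miRNA arrays. Cells lacking ATF6b (ATF6bKO) and wild-type cells (ATF6bWT) were each sampled untreated and after 12 h or 24 h in medium with tunicamycin at 2 ug/mL, which makes 6 groups with 2 arrays each. ATF6b is an endoplasmic reticulum membrane protein whose cleaved form acts as a transcription factor under stress, and tunicamycin provokes that stress by blocking N-linked glycosylation. The stated purpose was to find miRNAs that answer to 12 h of tunicamycin in a way that depends on ATF6b. The labels give no number of embryos or cell lines behind a genotype. The p-values of the group comparisons rest on the spread between the 2 arrays of a group, pooled over the 6 groups. Untreated cells stand in for both times, since no vehicle control is described in the labels.

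miR-34a and the miR-34b/c pair come from separate loci, and both are textbook direct targets of the tumour suppressor p53. The mature 5p strands share a seed, the stretch that pairs with target mRNAs, and they repress genes of cell-cycle entry and survival such as Cdk6, Met and Bcl2. miR-34a is made in most tissues, whereas miR-34b and miR-34c are best known from testis and from multiciliated epithelia, where the miR-449 cluster carries the same seed. In mouse cells under endoplasmic reticulum stress, the stress sensor IRE1 has been reported to cut the miR-34a precursor.

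The mature sequences are printed to show which members share a seed and which do not, with bases 2 to 8 in capitals. They are RefSeq entries on GRCm38.p6, and 4 of the 5 members had one, miR-34c being named only.
miR-34a-5p, array name miR-34a, chr4:150068473-150068494 on the plus strand: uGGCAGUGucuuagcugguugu
miR-34b-5p, chr9:51103610-51103632 on the minus strand: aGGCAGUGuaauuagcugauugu
miR-34b-3p, chr9:51103574-51103595 on the minus strand: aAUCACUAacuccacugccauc
miR-34c-3p, array name miR-34c*, chr9:51103044-51103065 on the minus strand: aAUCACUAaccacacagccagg
miR-449a-5p, chr13:113037549-113037570 on the plus strand: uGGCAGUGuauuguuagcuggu
The seed GGCAGUG occurred in 4 of the 1679 mature entries of that table (miR-34a-5p, miR-34b-5p, miR-449a-5p and miR-449c-5p). The 3p strands of miR-34b and miR-34c had another seed, AUCACUA, shared by these 2 entries alone. Counted from the 5′ end, miR-34a-5p and miR-34b-5p had the same base at 11 of 22 positions, and miR-34b-3p and miR-34c-3p at 17 of 22. The Mir34a hairpin lies between the genes H6pd and Gpr157 and overlaps 0 other annotated genes. The Mir34c and Mir34b hairpins lie 451 bases apart on chromosome 9 and both overlap Btg4 and Hoatz.

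Array brightness, the 75th percentile of signal over the 93 miRNAs detected on every array, ran from 207.9 to 623.2, and 114 to 191 miRNAs were detected per array. All levels below are signals divided by that percentile, so a level of 1 equals it. The 4 untreated arrays shared 1 slide and the 8 treated arrays another, so treatment and slide cannot be told apart. The arrays of each slide fell into 2 runs, told apart only by the recorded scan date, and each run held both genotypes. Genotype and slide row cannot be told apart either. Of 10 fibroblast markers, all 10 were detected on some array and 7 on every array. Of 11 epithelial markers 7 were detected on some array and 0 on all. miR-200c and miR-141 were not detected outside treated ATF6bKO, whereas miR-96 was detected on 10 arrays and miR-183 on 6, thus in other groups too. The summed level of the 11 epithelial markers was 2.79 to 4.04 on the treated ATF6bKO arrays and 0.0240 to 0.131 on the other 8. miRNA arrays carry no probe for Atf6b itself, so the genotype labels were not checked.

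Both 3p or star strands were close to the detection limit, whereas the 3 strands miR-34a, miR-34b-5p and miR-34c were detected on 12 of 12 arrays. Each member was read by 2 probes, with 7 to 10 spots of a probe used per array, and detected means flagged so by the scanner software. miR-34b-3p was detected on 1 array, an untreated ATF6bKO one, with a level of 0.0615. miR-34c* was detected on 4 arrays, 1 each of untreated ATF6bKO, ATF6bKO at 24 h, untreated ATF6bWT and ATF6bWT at 24 h, with levels of 0.0159 to 0.0231. These 2 strands were not tested, since neither was detected on both arrays of any group. Of 4 further array names listed as related by seed, miR-449a, miR-449b and miR-449c were detected on 0 of 12 arrays and miR-699 on 1. A probe's brightness also depends on its sequence, so members are compared below by their changes and not by their levels.

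miR-34a lay between 0.954 and 1.115 on the 6 ATF6bKO arrays and was lower in treated than in untreated ATF6bWT cells. In bulk RNA, fewer cells that make a miRNA and less of it per cell cannot be told apart. In ATF6bKO cells its levels were 1.00 and 0.954 untreated, 0.983 and 1.00 at 12 h, and 1.115 and 1.01 at 24 h. In ATF6bWT cells they were 1.236 and 1.099 untreated, 0.681 and 0.606 at 12 h, and 0.738 and 0.682 at 24 h. The 4 treated ATF6bWT arrays were the lowest of the 12, and the 3 highest were both untreated ATF6bWT arrays with 1 ATF6bKO array at 24 h between them. By group mean the order was untreated ATF6bWT (1.17 ± 0.0966), ATF6bKO at 24 h (1.06 ± 0.0738), ATF6bKO at 12 h (0.992 ± 0.0118), untreated ATF6bKO (0.977 ± 0.0327), ATF6bWT at 24 h (0.710 ± 0.0396) and ATF6bWT at 12 h (0.644 ± 0.0531; SD, n = 2 each). The first 2 groups of that order overlapped, as did ATF6bKO at 12 h and untreated ATF6bKO. miR-34a was itself the miRNA at the 75th percentile on 2 ATF6bKO arrays, so its level there is 1.00 by construction. When the percentile was taken over the other 90 miRNAs, a setting chosen after the data were seen, the miR-34a change at 12 h in ATF6bWT was -0.90 on the log2 scale and every limma call of miR-34a below was kept.

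miR-34b-5p and miR-34c, the strands of the other locus, followed another order. miR-34b-5p had levels of 0.516 and 0.457 in untreated ATF6bKO cells, 0.468 and 0.484 at 12 h, and 0.575 and 0.532 at 24 h. In ATF6bWT cells miR-34b-5p had 0.385 and 0.329 untreated, 0.357 and 0.399 at 12 h, and 0.451 and 0.451 at 24 h. All 6 ATF6bKO arrays were above all 6 ATF6bWT arrays for this strand. How many of the other miRNAs were split in this way was not counted, and tests between genotypes are given below by condition. miR-34c had levels of 1.05 and 0.931 in untreated ATF6bKO cells, 0.781 and 0.822 at 12 h, and 0.963 and 0.907 at 24 h. In ATF6bWT cells miR-34c had 0.777 and 0.636 untreated, 0.726 and 0.662 at 12 h, and 0.829 and 0.796 at 24 h. For miR-34c the genotypes overlapped, since ATF6bKO at 12 h lay among the ATF6bWT arrays at 24 h.

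**Figure D1:**
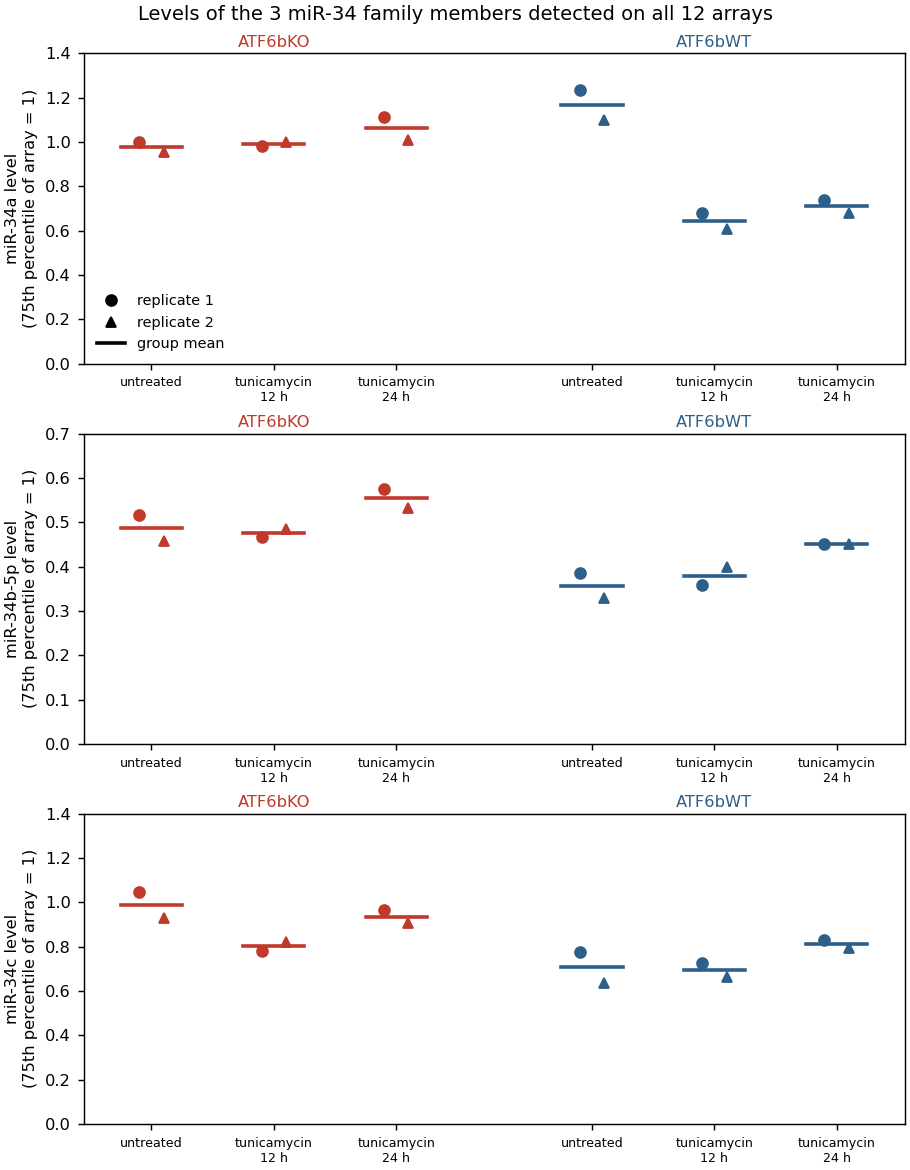
Levels of miR-34a, miR-34b-5p and miR-34c by group on a linear axis on which 1 is the array's 75th percentile, with 1 point per array, a bar at the group mean, and a shorter axis for miR-34b-5p. The 4 treated ATF6bWT arrays sit between 0.606 and 0.738 for miR-34a, below every other array, while miR-34b-5p is higher on all 6 ATF6bKO arrays than on all 6 ATF6bWT arrays. How many of the other miRNAs were split in either way was not counted.

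Which members changed with 12 h of tunicamycin was tested with limma over 176 mouse miRNAs, each detected on the 2 arrays of some group, with p-values adjusted over all 176. In ATF6bWT cells miR-34a fell by 0.86 on the log2 scale at 12 h (SE 0.12, adjusted p = 0.00107), a level 0.551 times that of untreated cells. It was 1 of 3 tested members called, against 38.1% of all 176, and it ranked 30 from the lowest change. The changes were 0.09 for miR-34b-5p (SE 0.13, adjusted p = 0.629) and -0.02 for miR-34c (SE 0.13, adjusted p = 0.945). The median of all 176 was -0.05, so miR-34a lay 0.81 below it. Both miR-34a probes fell, by 0.92 and 0.84. The arrays did not overlap for miR-34a, as for 73.3% of all tested miRNAs, and overlapped for the other 2 strands. The miR-34a call was lost when arrays were scaled over all mouse miRNAs, most of them not detected (-0.88, adjusted p = 0.302), and with the deposited unscaled values (-0.83, adjusted p = 0.548).

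At 24 h in ATF6bWT cells miR-34a fell by 0.72 (SE 0.12, adjusted p = 0.00234), again the 1 member called, against 43.2% of all 176. miR-34b-5p changed by 0.34 (SE 0.13, adjusted p = 0.0664) and miR-34c by 0.21 (SE 0.13, adjusted p = 0.231), against a median of -0.03. The groups did not overlap for any of the 3 strands, a state shared by 71.6% of all miRNAs: treated arrays were lower for miR-34a and higher for miR-34b-5p and miR-34c. Of 12 alternative settings, 4 brought the miR-34b-5p change past limma's threshold. A doubled floor for low signals (adjusted p = 0.0338), only miRNAs detected on all arrays (0.0458) and median scaling (0.0311) did so. So did replicate number as a block (adjusted p = 0.046). That block pairs genotypes and not treated with untreated arrays, so no conclusion is drawn from it here. Without replicate 1 of untreated ATF6bWT the miR-34b-5p change was 0.45. The miR-34a call was lost with the same 2 scalings as at 12 h (adjusted p = 0.316 and 0.343). Between 24 h and 12 h in these cells limma called 0 of 3 members, against 1.14% of all miRNAs, with 0 at an unadjusted p under 0.05. All 3 were higher at 24 h without overlap, as 29.5% of all miRNAs did not overlap, and their changes were 0.14, 0.25 and 0.23 for miR-34a, miR-34b-5p and miR-34c.

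In ATF6bKO cells no member passed the test with tunicamycin. At 12 h the changes were 0.02 for miR-34a (SE 0.12, adjusted p = 0.939), -0.03 for miR-34b-5p (SE 0.13, adjusted p = 0.9) and -0.30 for miR-34c (SE 0.13, adjusted p = 0.161). The median of all 176 was 0.25 there, and 25.6% were called, against 0 of 3 members by limma and 0 at an unadjusted p under 0.05. miR-34c alone did not overlap, its 2 treated arrays being lower, as 71.6% of all miRNAs did not overlap. These values depend on the scaling: with the deposited unscaled values the 12 h changes in ATF6bKO were -0.86, -0.92 and -1.19 for miR-34a, miR-34b-5p and miR-34c (adjusted p = 0.57, 0.539 and 0.506). With median scaling they were -0.15, -0.20 and -0.47 (adjusted p = 0.566, 0.348 and 0.0692). With quantile normalization the miR-34c change was -0.62 and passed (adjusted p = 0.0267). At 24 h the changes were 0.12 for miR-34a, 0.19 for miR-34b-5p and -0.08 for miR-34c, against a median of 0.15, and arrays did not overlap for miR-34a and miR-34b-5p, as for 57.4% of all miRNAs. Again 0 of 3 were called by limma and 0 had an unadjusted p under 0.05, against 30.7% called among all 176. At 12 h the 95% intervals ran from -0.26 to 0.30 for miR-34a, from -0.33 to 0.27 for miR-34b-5p and from -0.61 to 0.01 for miR-34c. Between 24 h and 12 h limma called 0 of 3 members, with 0 at an unadjusted p under 0.05, against 0.568% of all miRNAs. The changes were 0.10, 0.22 and 0.22 for miR-34a, miR-34b-5p and miR-34c, all higher at 24 h without overlap, as 32.4% of all miRNAs did not overlap.

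Whether the response depended on genotype was tested as the difference of the tunicamycin changes, ATF6bKO minus ATF6bWT. For miR-34a this difference was 0.88 at 12 h (SE 0.17, adjusted p = 0.0105) and 0.84 at 24 h (SE 0.17, adjusted p = 0.0203). It was 1 of 3 members called at each time, against 24.4% of all miRNAs at 12 h and 20.5% at 24 h. The medians of all 176 were themselves above 0, at 0.37 and 0.44, and miR-34a lay 0.51 and 0.39 above them. For miR-34b-5p the difference was -0.12 at 12 h (adjusted p = 0.69) and -0.15 at 24 h (adjusted p = 0.615). For miR-34c it was -0.28 (adjusted p = 0.321) and -0.29 (adjusted p = 0.329). Both miR-34a probes gave a positive difference, 0.86 and 0.88 at 12 h and 0.72 and 0.87 at 24 h.

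The call of the miR-34a difference at 12 h was kept with each array left out in turn, and with the deposited unscaled log2 values it turned to -0.035. It did not pass with median scaling (0.71, adjusted p = 0.0738) or with normexp background correction (0.72, adjusted p = 0.114). Of 13 alternative settings, 8 kept the call at 12 h and 7 kept it at 24 h. At 24 h it was lost without replicate 2 of untreated ATF6bKO (adjusted p = 0.0606) and without replicate 2 of ATF6bWT at 24 h (adjusted p = 0.0647). Both times rest on the treated ATF6bKO arrays with the epithelial marker sum of 2.79 to 4.04, whose part in these differences, and in the genotype differences under tunicamycin below, was not tested.

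**Figure D2:**
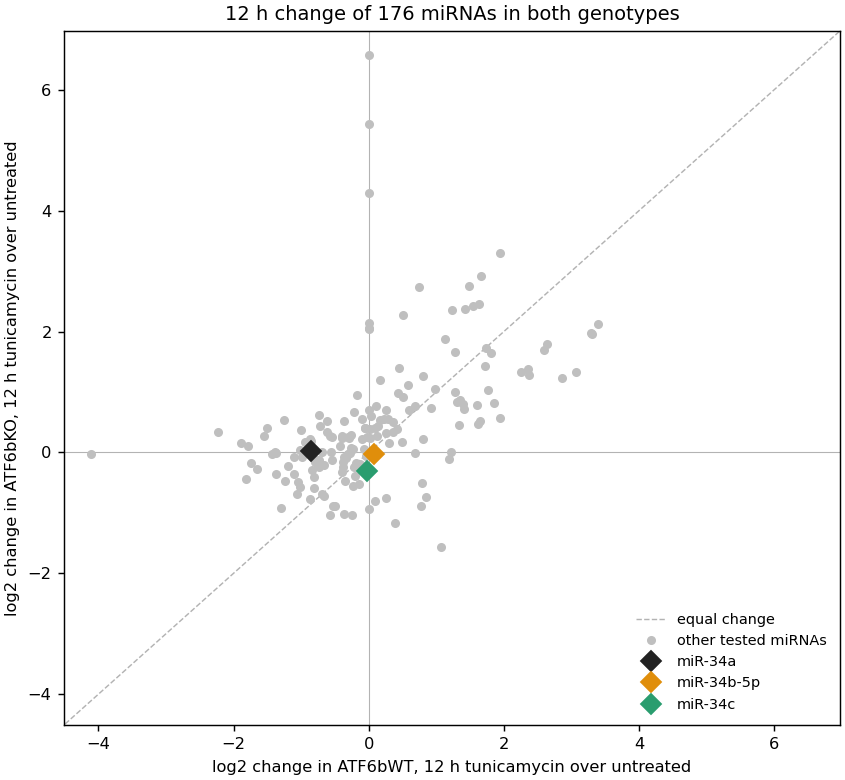
Log2 change with 12 h of tunicamycin in ATF6bKO (vertical axis) and in ATF6bWT (horizontal axis) for the 176 tested miRNAs, with the 3 family members as diamonds and a dashed line of equal change. miR-34a sits at -0.86 in ATF6bWT and 0.02 in ATF6bKO, left of the line, while miR-34b-5p and miR-34c sit near 0 in ATF6bWT.

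The genotypes were also compared within each condition. In untreated cells miR-34b-5p was 0.45 higher in ATF6bKO on the log2 scale (SE 0.13, adjusted p = 0.0611) and miR-34c 0.49 higher (SE 0.13, adjusted p = 0.0552), while miR-34a changed by -0.26 (SE 0.12, adjusted p = 0.28). None of the 3 passed limma's threshold, 2 of 3 had an unadjusted p under 0.05, and 11.4% of all miRNAs were called. The 2 runs of the untreated slide gave 0.42 and 0.48 for miR-34b-5p and 0.43 and 0.55 for miR-34c. With replicate number, which marks the run here, as a block, both passed (adjusted p = 0.0385 for miR-34b-5p and 0.0212 for miR-34c). Without replicate 1 of untreated ATF6bWT miR-34c passed (adjusted p = 0.0496). The arrays did not overlap for any of the 3 strands, as for 47.2% of all miRNAs, with miR-34a lower and the other 2 strands higher in ATF6bKO.

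At 12 h of tunicamycin miR-34a was 0.63 higher in ATF6bKO than in ATF6bWT (SE 0.12, adjusted p = 0.00508), 1 of 3 members called against 38.1% of all miRNAs. At 24 h it was 0.58 higher (SE 0.12, adjusted p = 0.00797), 1 of 3 against 34.7%. The 2 runs gave 0.53 and 0.72 at 12 h, and 0.60 and 0.57 at 24 h. The medians of all miRNAs were 0.23 and 0.25, so miR-34a lay 0.40 and 0.33 above them. Neither call held with median scaling (0.40 with adjusted p = 0.103 at 12 h and 0.38 with adjusted p = 0.118 at 24 h), and the 24 h call was lost without replicate 2 of ATF6bWT at 24 h (adjusted p = 0.0534). With the deposited unscaled values the 12 h difference turned to -0.10.

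The miR-34b/c strands did not pass the test between genotypes under tunicamycin. At 12 h miR-34b-5p was at 0.33 (SE 0.13, adjusted p = 0.0786) and miR-34c at 0.21 (SE 0.13, adjusted p = 0.275). At 24 h miR-34b-5p was at 0.30 (SE 0.13, adjusted p = 0.118) and miR-34c at 0.20 (SE 0.13, adjusted p = 0.291). Leaving out replicate 1 or replicate 2 of untreated ATF6bWT brought miR-34b-5p at 12 h past the threshold (adjusted p = 0.0493 in each case), as did the run as a block (adjusted p = 0.0224 with a random and 0.0464 with a fixed term). The arrays of the 2 genotypes did not overlap for any of the 3 strands at 12 h, as for 69.3% of all miRNAs, or at 24 h, as for 59.1%.

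**Figure D3:**
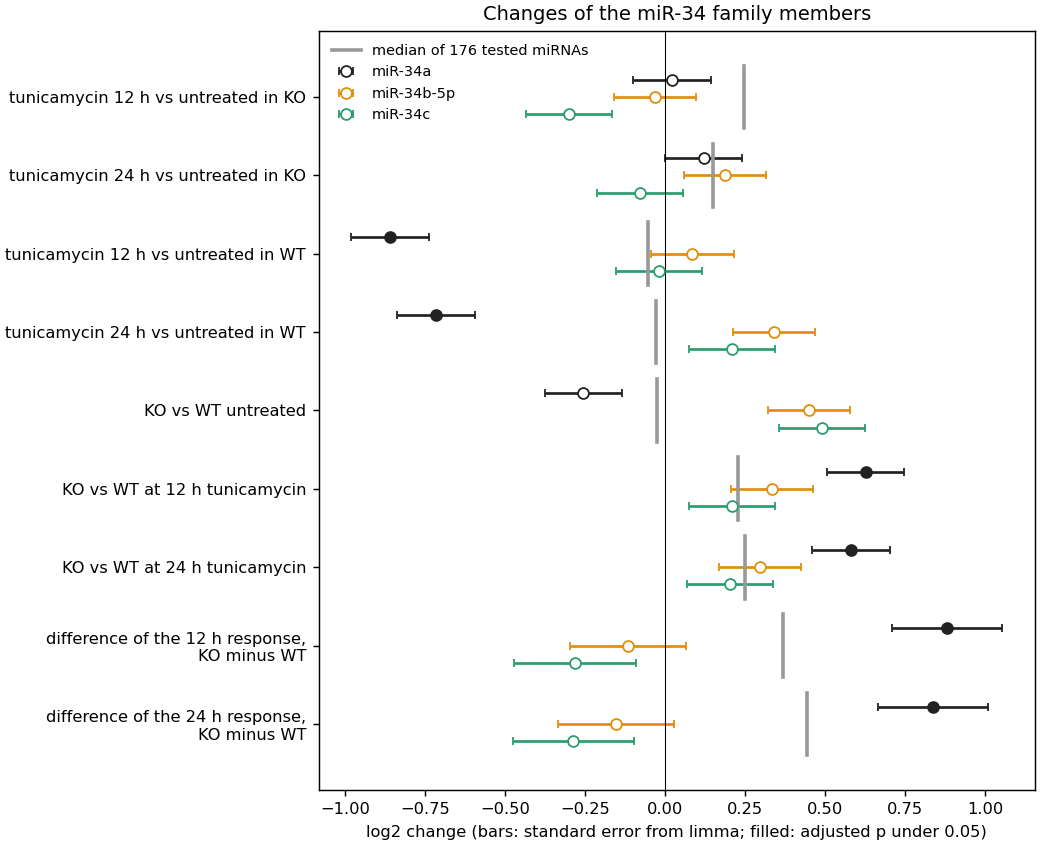
Log2 changes of miR-34a, miR-34b-5p and miR-34c in 9 comparisons, with bars of 1 standard error from limma, filled points for adjusted p under 0.05, and a grey bar at the median of the 176 tested miRNAs. The filled points are all miR-34a, below 0 with tunicamycin in ATF6bWT and above 0 in the genotype comparisons under tunicamycin and in the response differences.

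To set the miR-34a locus against the miR-34b/c locus free of array scaling, the mean log2 level of miR-34b-5p and miR-34c was subtracted from that of miR-34a within each array. Only changes in this difference are interpretable, since probes differ in brightness. It was 0.44 and 0.55 in untreated ATF6bKO cells, 0.70 and 0.66 at 12 h, and 0.58 and 0.54 at 24 h. In ATF6bWT cells it was 1.18 and 1.26 untreated, 0.42 and 0.24 at 12 h, and 0.27 and 0.19 at 24 h. The 2 untreated ATF6bWT arrays lay above the other 10, and the 4 treated ATF6bWT arrays lay below the 6 ATF6bKO arrays. How many differences between other miRNAs were split in this way was not counted. By group mean the locus difference changed by -0.89 at 12 h and -0.99 at 24 h in ATF6bWT, against 0.19 and 0.07 in ATF6bKO. In untreated cells it was lower in ATF6bKO by 0.72, and under tunicamycin it was higher in ATF6bKO by 0.35 at 12 h and 0.33 at 24 h.

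**Figure D4:**
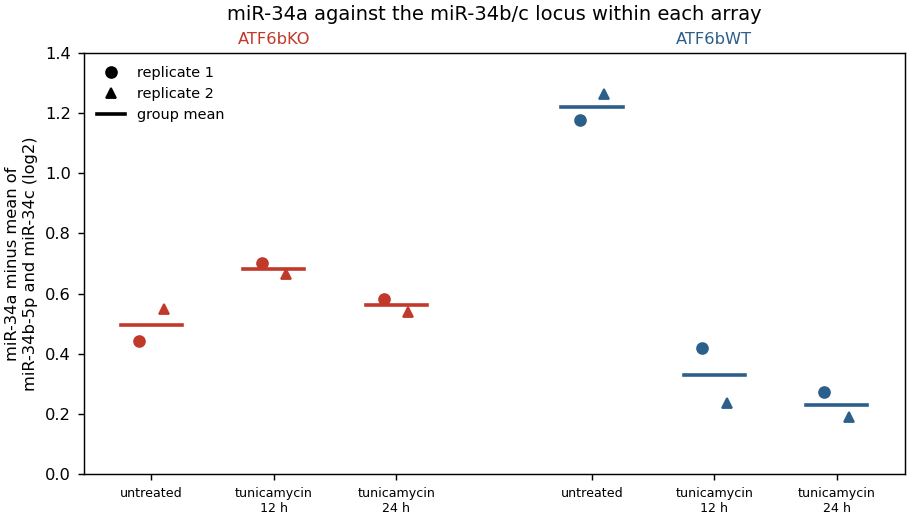
Log2 level of miR-34a minus the mean of miR-34b-5p and miR-34c within each array, by group, with 1 point per array and a bar at the group mean. The untreated ATF6bWT arrays stand at 1.18 and 1.26, and the treated ATF6bWT arrays at 0.19 to 0.42, below every ATF6bKO array. How many differences between other miRNAs were split in this way was not counted.

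Over all 12 arrays, 3 exact permutation tests were run, with treatment permuted within genotype or genotype within condition. The locus difference averaged 0.45 ± 0.20 on treated arrays (SD, n = 8) and 0.86 ± 0.42 on untreated arrays (SD, n = 4), a change of -0.41 (exact permutation p = 0.0622, two-sided, 225 permutations). miR-34a itself averaged -0.26 ± 0.34 on treated and 0.09 ± 0.17 on untreated arrays on the log2 scale (SD, n = 8 and 4), a change of -0.36 (exact permutation p = 0.0622, two-sided). Between genotypes miR-34a averaged 0.01 ± 0.08 in ATF6bKO and -0.30 ± 0.42 in ATF6bWT (SD, n = 6 each), a difference of 0.32 (exact permutation p = 0.0648, two-sided, 216 permutations). Without replicate 1 or without replicate 2 of untreated ATF6bWT the genotype difference had an exact permutation p of 0.037. Adjusted over the 3 tests each p was 0.0648. These averages pool genotypes or conditions whose miR-34a changes differed, as given above.

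Likeness across arrays was described by correlation, with no test. Over the 12 arrays, which share slides, runs and scaling, miR-34b-5p and miR-34c had a Pearson correlation of 0.85. With miR-34a the correlation was 0.23 for miR-34b-5p and 0.35 for miR-34c, ranks 89 and 81 of the 175 other tested miRNAs. The 5 miRNAs most like miR-34a were miR-31 (0.93), miR-324-5p (0.93), miR-382 (0.92), miR-23b (0.92) and miR-24 (0.91). Since these miRNAs were picked for likeness to miR-34a on the same arrays, their changes follow from the choice and are given only as values. At 12 h the change of miR-23b was 0.11 on the log2 scale in ATF6bKO and -1.79 in ATF6bWT, and that of miR-324-5p was 0.19 in ATF6bKO and -0.85 in ATF6bWT. miR-31 was not well above background on the treated ATF6bWT arrays, so at 12 h it was at least 13.0-fold lower than in untreated ATF6bWT cells. The 5 least like were miR-218 (-0.92), miR-15b (-0.87), miR-16 (-0.84), miR-322 (-0.83) and miR-25 (-0.81).

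Other miRNAs tied to p53 are given as a description. Of 13 listed as raised or processed with p53, 11 were on the array and 7 were tested, of which 5 (miR-143, miR-107, miR-15a, miR-16 and miR-22) were detected on all 12 arrays. The other 2, miR-200c and miR-141, are also on the epithelial marker list and passed the filter only through the treated ATF6bKO groups, so they are left out of the counts here, a choice made after their values were seen. In ATF6bWT at 12 h 2 of the 5 were called higher and 2 lower, against 38.1% of all tested miRNAs called. miR-15a and miR-16, which share a hairpin cluster and target Bcl2 and cyclins, rose by 1.27 and 1.41, whereas miR-143, abundant in fibroblasts and smooth muscle, fell by 1.89 and miR-22 fell by 0.57 (adjusted p = 0.000152, 0.000152, 0.00492 and 0.0362). The median of the 5 was 0.03, against -0.05 for all tested miRNAs. In ATF6bKO at 12 h miR-107, miR-15a and miR-16 were called higher and 0 of the 5 lower, against 25.6% of all called, with a median of 0.61 against 0.25. The difference of the 12 h response was called for 3 of the 5, higher in ATF6bKO for miR-143 and miR-22 and lower for miR-16, against 24.4% of all tested miRNAs. miR-200c and miR-141 were not well above background in untreated ATF6bKO and were at least 73.9-fold and 33.5-fold higher at 12 h. These bounds are given without a p-value, since the filter admitted both miRNAs only through the treated ATF6bKO groups.

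Of 9 miRNAs listed as acting on the p53 pathway, 8 were on the array and 4 were tested. Of these, miR-29a, miR-29b and miR-29c were detected on all 12 arrays, and this family is reported to raise p53 through p85 alpha and CDC42. In ATF6bWT limma called 0 of these 3 at 12 h, against 38.1% of all tested miRNAs, and 0 at 24 h, against 43.2%, with 0 at an unadjusted p under 0.05 at either time. In ATF6bKO at 12 h all 3 were called higher, against 25.6% of all called, miR-29a by 0.54, miR-29b by 0.98 and miR-29c by 0.71 (adjusted p = 0.0126, 0.0118 and 0.0175). Their differences of the 12 h response were 0.36, 0.55 and 0.70 (adjusted p = 0.162, 0.236 and 0.0769). The rise in ATF6bKO began from a lower level for 2 of the 3. In untreated cells ATF6bKO minus ATF6bWT was -0.66, -0.92 and -0.31 for miR-29a, miR-29b and miR-29c (limma adjusted p = 0.0126, 0.0345 and 0.354). Of all tested miRNAs 11.4% were called there. At 12 h it was -0.30, -0.36 and 0.39 (adjusted p = 0.095, 0.249 and 0.111). The remaining tested miRNA, miR-375, best known from pancreatic islets, is also on the epithelial marker list and passed the filter only through ATF6bKO at 12 h. There it was at least 3.44-fold higher than in untreated ATF6bKO cells, and it was not detected on any ATF6bWT array. This bound is given without a p-value, since the filter admitted miR-375 only through that group. The epithelial marker sum was 2.82 to 4.04 in ATF6bKO at 12 h and 0.0240 to 0.0396 in untreated ATF6bKO, and its part in the result was not tested.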

How the data were processed

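Mature miRNA was measured on 12 1-colour arrays, 2 in each of 6 groups taken from the labels. The deposited scanner tables hold spot intensity values, background-subtracted and unscaled between arrays, and the submitters' processing notes name Agilent Feature Extraction, version 10.7.1.1, as their source. The series' value table holds log2 values; checked against the scanner files, the authors' deposited values equal log2 of the software's total signal per miRNA within 1.18e-06 and are unscaled between arrays. They were used as an alternative.

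Outlier and control spots were left out, spots were averaged per probe, and probes were summed per miRNA. Signals were scaled by the 75th percentile, on each array, of the 93 mouse miRNAs detected on all arrays, values below 0.0191 were set to that floor, and log2 was taken. limma 3.58.1 in R 4.3.3 fitted all 6 groups over 176 miRNAs (6 residual degrees of freedom, prior 1.65), with Benjamini-Hochberg adjusted p-values and a threshold of 0.05. Tables were handled with pandas 2.3.3 and numpy 2.4.6, and the fit was tested on simulated data. The simulated arrays varied independently, unlike real arrays of the same run, so they do not give the error rate here. Two-sided exact permutation tests covered single values over all arrays. Only 2 arrays a group limit the precision.

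A miRNA not detected on either array of a group has only a bound there. The brighter group's mean was set against the mean of, per array of the dim group, the highest of the floor, that array's lowest detected signal and the miRNA's own signal.

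The miRNAs named are all family members, the detected members of the p53 lists, and the 5 highest and 5 lowest Pearson correlations with miR-34a. The members and lists were chosen with earlier results of these data known. On each slide the replicate number coincides with the run: deviations of same-numbered arrays correlated at 0.67 to 0.96 within a slide and at -0.59 to -0.11 between slides. A block by number therefore pairs genotypes, and not treated with untreated arrays. Alternatives were other backgrounds, scalings, floors, filters and blocks, and each array left out. Those without an array kept the scaling and the tested set and assume that the lone array varies like the others. The planned normexp correction used the median spot signal. With all 13715 spots its fit failed on 1 array (ATF6bWT at 12 h, replicate 1), so 9 spots with local background of at least 1485 were left out.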

Additional observations from a re-analysis of the deposited data

Results flagged for a closer look

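The response of miR-34a to tunicamycin differed between the genotypes by a test of the difference itself at both times. The difference, ATF6bKO minus ATF6bWT on the log2 scale, was 0.88 at 12 h and 0.84 at 24 h, against medians of 0.37 and 0.44 for all tested miRNAs. Of 13 alternative settings, 8 kept the call at 12 h, with 1 of reversed sign, and 7 kept it at 24 h. At 12 h the changes behind the difference were 0.02 in ATF6bKO and -0.86 in ATF6bWT, and at 24 h they were 0.12 and -0.72. Untreated arrays are shared by the times, so the 2 differences are not separate evidence.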

How the results depend on the processing

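Treatment coincides with slide, 2 arrays a group leave wide intervals, and miR-34b-3p and miR-34c* were too close to background to be tested. Counts of called members changed as follows, against 1 in the main setting for ATF6bWT at 12 h and 24 h, for the genotypes at 12 h and 24 h and for both response differences, and 0 elsewhere. With the deposited values and with scaling over all mouse miRNAs, each of these 6 comparisons had 0. With normexp, with the software's total signal and with median scaling, the genotype comparisons under tunicamycin and the response differences had 0, and with quantile normalization the genotypes at 24 h and the 24 h response difference had 0, while ATF6bKO at 12 h had 1. For ATF6bWT at 24 h the count was 2 with the doubled floor, with only miRNAs detected on all arrays, with median scaling and with the replicate block. The block does not pair treated with untreated arrays, so no conclusion is drawn from it for this comparison. For untreated genotypes it was 2 with the doubled floor, the all-detected filter, the replicate block and the run as a random or fixed block, and 1 with scaling without the family. For genotypes at 12 h it was 2 with the doubled floor and the run as a random or fixed block, and at 24 h it was 2 with scaling without the family and the run as a random block. The replicate block changed no other call. Of these, scaling without the family, median scaling, the fixed run block and normexp without the spots of extreme background were chosen after the data were seen. miR-34a turned with the deposited values to -0.10 for genotypes at 12 h and -0.035 for the 12 h response difference. Over the arrays left out in turn, counts ran from 1 to 2 (ATF6bWT at 24 h), 0 to 1 (untreated genotypes), 1 to 2 (genotypes at 12 h), 0 to 1 (genotypes at 24 h) and 0 to 1 (24 h response difference), with no change elsewhere. The change of miR-34a between treated and untreated arrays became -0.55 with the software's total (exact permutation p = 0.0267), -0.96 with the deposited values (0.0178), -0.53 with quantile normalization (0.04) and -0.39 with median scaling (0.0311), and left-out arrays gave -0.42 to -0.29. Its genotype difference, 0.32 in the main setting, was 0.0054 with the deposited values (exact permutation p = 0.954), 0.046 with scaling over all mouse miRNAs (0.843) and 0.16 with median scaling (0.296), and ran from 0.23 to 0.44 with left-out arrays. The change of the locus difference was -0.35 with normexp (exact permutation p = 0.0444) and ran from -0.55 to -0.27 with left-out arrays. The cause of these changes was not tested, except that the smaller filter tested fewer miRNAs.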

Other observations

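The software's total signal, and with it the deposited log2 value, was not each miRNA's own signal for some miRNAs. Of 603 cases of a detected miRNA whose total differed from the sum of its own probes by over 50%, 593 (98.3%) equalled, within 0.01, the total of the preceding detected miRNA in name order plus own probe signal. The family was touched by this at the weak strands. In replicate 1 of untreated ATF6bKO the total of miR-34b-3p was 428.255, which is the miR-34a total of 413.592 plus 14.663. In replicate 2 of untreated ATF6bKO the total of miR-34c* was 383.806, which is the miR-34c total of 377.123 plus 6.683. Levels in the text come from the probes of each member and not from these totals.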
